A study of Homo sapiens with 18 samples.

Results

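The genes described here are 4 basement membrane chains, the collagen IV chains COL4A1 and COL4A2 and the laminin chains LAMA4 and LAMC1, measured on Affymetrix expression arrays in 2 human melanoma lines, A375M2 and C32. They were selected from results already measured in these arrays, so their levels and differences are given as a description with no test. Every probe set annotated to these genes alone was taken, which gave 11 probe sets of 23416, and all 11 passed a filter on low values. The 4 genes stand among 10918 genes that entered the fit. Values are log2 signals, so that a difference of 1 is a 2-fold difference. The other basement membrane genes set beside the 4 chains were listed with earlier results of these data known. Their counts, shares and p-values are therefore no independent support.

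The series held 18 arrays of total RNA in 6 groups of 3. A375M2 cells, a metastatic derivative of A375, carried GFP, full-length His-tagged PMEL, short hairpin RNAs (shRNAs) against FHL2 or shRNAs against NFYA; C32 cells carried GFP or the FHL2 shRNAs. The methods describe stable lentiviral transduction, drug selection and sorting for GFP: PMEL was driven by a CMV promoter ahead of an IRES-eGFP element, and FHL2 was targeted with a pool of 3 constructs. 2 kinds of GFP control virus are described, with different selection drugs, and the labels do not say which one the GFP arrays hold. Those steps are described for A375M2; how the C32 cells and the NFYA arm were made was not described in the labels. The cells are sorted, selected populations, and a shift in which cells make a chain cannot be told apart from less RNA per cell. FHL2 is a LIM-domain adaptor at integrin adhesions and in the nucleus, PMEL forms the fibrils of melanosomes, and NFYA belongs to NF-Y, the factor that binds CCAAT boxes.

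Collagen IV is the network-forming collagen of basement membranes. An α1α1α2 trimer built from COL4A1 and COL4A2 is its most widespread form, and the trimers join into a sheet under epithelia and around vessels, nerve and muscle. Laminins are heterotrimers of an α, a β and a γ chain. LAMC1 is the γ chain of most of them, and LAMA4 is the α chain of laminins of vessels, muscle, fat and nerve. Nidogen, encoded by NID1, binds laminin and collagen IV and links both networks, and cells attach to them through integrins. Melanoma cells make both collagen IV and laminins, and LAMA4-containing laminins are known from work on melanoma cell migration.

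COL4A1 and COL4A2 lie head to head on chromosome 13. In GRCh38.p14, COL4A1 is on the minus strand at chr13:110148963-110307157 and COL4A2 on the plus strand at chr13:110307284-110513209. A stretch of 126 bases lies between the annotated starts, at chr13:110307158-110307283. It is shown because it serves as the promoter of both genes and because one arm targeted a subunit of the factor that binds CCAAT. The sequence is from RefSeq, 5′ to 3′ on the plus strand, with the motif CCAAT and the motif GGGCGG in capitals.
COL4A1 to COL4A2: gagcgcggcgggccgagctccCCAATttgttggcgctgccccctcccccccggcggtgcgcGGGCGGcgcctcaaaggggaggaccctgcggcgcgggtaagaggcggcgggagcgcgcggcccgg
The CCAAT begins 22 bases from the start of COL4A1 and 101 bases from that of COL4A2, and GGGCGG begins 62 and 60 bases away. Both motifs were searched on both strands, and they share no base. G and C made up 80.2% of the stretch. In the 250 bases before each start, CCAAT was found 1 time for COL4A1, 1 time for COL4A2 (the same site), and 0 times for LAMA4 and LAMC1. GGGCGG was found 2, 1, 0 and 3 times for COL4A1, COL4A2, LAMA4 and LAMC1. Of 35116 promoters of that length in the RefSeq table, 11240 (32%) held CCAAT and 14973 (42.6%) held GGGCGG. These matches are letters in a window and say nothing about binding. LAMC1 lies on the plus strand at chr1:183023420-183145592 and LAMA4 on the minus strand at chr6:112107931-112254985, where the start used for LAMA4 is inside the annotated gene.

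The arrays were checked before the values were used. The third C32 GFP array matched the average of the other 2 to within an SD of 0.0069 over 14480 well-measured probe sets, and was left out of all means and fits, which leaves 2 arrays for that group. Replicate 3 of A375M2 GFP and replicate 3 of A375M2 PMEL departed from the means of their groups' other arrays by nearly exact opposites, with a correlation of -0.998 between the departures. They are not independent of each other, so the comparison of PMEL with GFP is given with and without them. Runs of identical low values link the arrays into sets. No value was shared between the A375M2 GFP and PMEL arrays on one side and the A375M2 shRNA arrays on the other, so in the comparisons of A375M2 shRNA with GFP the arm and the set of arrays cannot be told apart. The GFP and PMEL arrays of A375M2 are themselves of 2 sets: replicate 3 of each shared 0 values with replicates 1 and 2 of either group, while it shared 221 to 537 values with the other array numbered 3 and with C32 GFP replicate 3. The arrays of shFHL2 and shNFYA in A375M2 belong to one set, as do C32 shFHL2 and the 2 C32 GFP arrays used.

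The targets were as labelled. FHL2 read 11.21 ± 0.052 (SD, n = 3) in A375M2 GFP and 7.17 ± 0.14 in shFHL2, and it read 11.08 ± 0.063 (n = 2) in C32 GFP and 5.83 ± 0.46 in C32 shFHL2. PMEL rose by 3.38 in the PMEL arm, and NFYA fell by 2.06 in the shNFYA arm (limma adjusted p = 1.58e-12 and 4.3e-13). NFYA also fell by 0.73 in A375M2 shFHL2 (adjusted p = 1.04e-06). Of 8 melanocyte lineage markers 7 were measured: SOX10 was between 11.79 and 12.88 in every group, and MLANA was 14.00 in C32 GFP but below 4 in all A375M2 groups. Other markers were far lower in the A375M2 shRNA arms. MITF was 14.24 in A375M2 GFP, 10.05 in shFHL2 and 8.95 in shNFYA, and S100B was 13.33, 11.46 and 10.02. In A375M2, 3 measured markers of the lineage were at 4 or more in shFHL2 and 4 in shNFYA, against 6 in GFP. The summed signal of the list ran from 15.15 to 15.24 in GFP, from 13.09 to 13.20 in shFHL2 and from 12.98 to 13.05 in shNFYA.

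COL4A1 and COL4A2 were high in A375M2 and far lower in C32, and in both lines they were lower with FHL2 shRNA. COL4A1 read 12.64, 12.62 and 12.61 on the 3 A375M2 GFP arrays and 12.39, 12.36 and 12.41 on the PMEL arrays. It read 11.74, 11.76 and 11.78 with shFHL2 and 11.05, 11.18 and 11.17 with shNFYA. In C32 it read 7.87 and 7.80 with GFP and 5.07, 5.28 and 5.37 with shFHL2. No array of any group overlapped the next group in that order, and the widest gap between neighbours was the 3.30 between A375M2 shNFYA and C32 GFP. These values are from probe set 211980_at. The other probe set of the gene, 211981_at, was dimmer, from 2.04 to 10.28 over the arrays in the fit, and gave the same order of group means.

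COL4A2, the partner chain, followed the same order. Its probe set 211964_at read 13.40, 13.29 and 13.29 in A375M2 GFP and 13.21, 13.22 and 13.28 in PMEL, where the groups lay next to each other with a gap of 0.086 between means. It read 12.06, 12.11 and 12.13 in A375M2 shFHL2 and 11.43, 11.44 and 11.55 in shNFYA. In C32 the values were 9.30 and 9.36 with GFP and 7.13, 7.05 and 7.03 with shFHL2. In A375M2 the shNFYA arrays were the lowest, followed by those of shFHL2. The dim probe set of COL4A2, 211966_at, read 2.42 on all 3 C32 shFHL2 arrays, a value at the bottom of its range, so it can give no more than a bound there.

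LAMC1, the common γ chain, was the brightest of the 4 representative probe sets in A375M2 GFP, although signals of different probe sets do not compare the amounts of different genes. It read 14.05, 14.05 and 14.01 in GFP, 13.86, 13.91 and 13.93 in PMEL, 12.82, 12.81 and 12.81 in shFHL2 and 12.32, 12.34 and 12.37 in shNFYA. C32 GFP gave 11.88 on both arrays, and C32 shFHL2 gave 11.20, 11.24 and 11.27. The order of the groups was that of the collagen IV chains, again with no overlap between neighbours.

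LAMA4 had another order. Its probe set 202202_s_at read 13.66, 13.85 and 13.86 in A375M2 GFP and 13.45, 13.48 and 13.35 in PMEL. The shFHL2 arrays read 13.32, 13.28 and 13.23, the shNFYA arrays 13.24, 13.20 and 13.25, and the C32 GFP arrays 13.20 and 13.26. These 3 groups overlapped, and their means lay between 13.23 and 13.28. C32 shFHL2 stood apart at 11.12, 10.97 and 11.10. By this probe set LAMA4 was 0.56 lower in C32 GFP than in A375M2 GFP, at the level of the A375M2 shRNA arms, and it was far lower in C32 shFHL2 alone. The next brightest probe sets did not set C32 shFHL2 apart. With 210089_s_at it read 10.20, above the 9.63 of A375M2 GFP, and with 210990_s_at 8.65, close to the 8.77 of A375M2 PMEL.

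**Figure D1:**
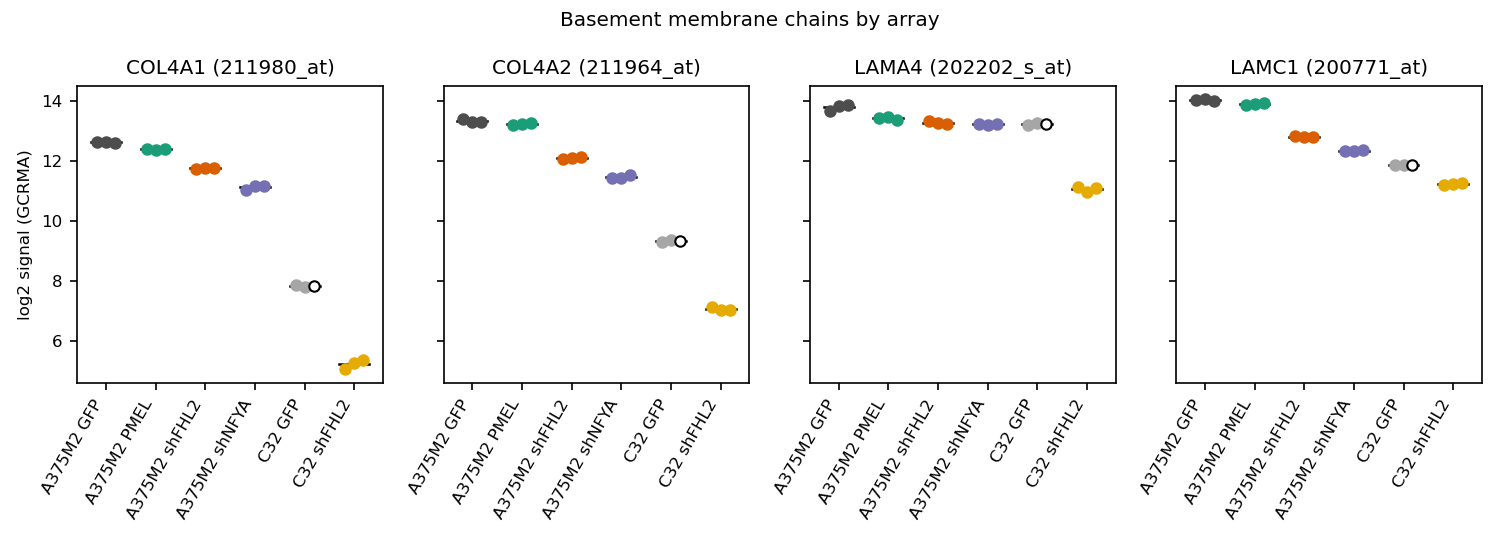
Log2 signal of the representative probe set of COL4A1, COL4A2, LAMA4 and LAMC1 on each array (points) in the 6 groups, with the group mean as a line; the open point is C32 GFP replicate 3, which is in no mean. COL4A1 falls from 12.62 in A375M2 GFP to 5.24 in C32 shFHL2, while LAMA4 stays between 13.23 and 13.79 in 5 groups and is at 11.07 in C32 shFHL2.

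FHL2 shRNA in C32 went with a lower signal of all 4 chains and of most of the other basement membrane genes measured. COL4A1 was 6.04-fold lower than in C32 GFP, COL4A2 4.80-fold, LAMA4 4.48-fold and LAMC1 1.56-fold. NID1, the nidogen that joins laminin to collagen IV, fell by 4.83, the largest fall of the listed genes. Of 15 genes that modify, fold or crosslink collagen, 13 fell, where 30.2% of all genes fell. This comparison stays within one array set.

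The log2 difference of COL4A1 was -2.60 ± 0.065 (SE), that of COL4A2 was -2.26 ± 0.048, that of LAMA4 was -2.16 ± 0.058 and that of LAMC1 was -0.64 ± 0.031. All 11 probe sets were lower in C32 shFHL2, by 0.35 to 2.60. The probe sets of 1 gene differed in size: 211981_at of COL4A1 gave -1.97, and the other 4 probe sets of LAMA4 gave between -1.17 and -0.35 where 202202_s_at gave -2.16. The -1.17 was from 216081_at, which was below 4 in both C32 groups. LAMC1 gave -0.37 with 200770_s_at.

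Of 70 other basement membrane genes listed by role, 47 were measured and tested. The lists were drawn up with earlier results of these data known, so the shares and p-values describe these lists alone. With FHL2 shRNA in C32, 31 of the 47 fell (66.0%) and 3 rose (6.38%) at an adjusted p under 0.05 (limma), where 30.2% of all 10918 genes fell and 32.3% rose. Their median log2 difference was -0.44, that of the 4 chains was -2.21, and that of all genes was 0.0015. Most of these falls were small: at a change of at least 2-fold, 6 of the 47 fell and 2 rose. At that threshold 921 of all 10918 genes were called in either direction, and these were not split by direction. Among the laminin chains, LAMB1, the β chain that pairs with LAMC1, fell by 0.78 (14.40 to 13.61, adjusted p = 9.45e-11), and LAMB2 fell by 0.95 (adjusted p = 7.64e-08). COL4A5, the single other collagen IV chain measured, fell by 0.66 (adjusted p = 2.52e-07). Of 11 linkers and other components, 5 fell and 2 rose. NID1 went from 8.36 ± 0.022 (n = 2) to 3.53 ± 0.25 (n = 3), with an adjusted p of 1.2e-16, and so ended at the bottom of the scale. The 2 that rose were COL15A1, which encodes a collagen with an endostatin-like end, and FREM2, which encodes a Fraser complex protein. FREM2 rose by 1.29. COL15A1 went from 3.91 ± 0.37 (n = 2) to 5.47, a difference of 1.55. Its means were below 4 in every other group and it entered the fit through C32 shFHL2, so its difference is no support for a rise.

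None of the 15 synthesis genes rose in C32 shFHL2. P3H2, a prolyl 3-hydroxylase that acts on collagen IV, fell by 1.46 (adjusted p = 4.74e-10). PLOD1, a lysyl hydroxylase, fell by 0.98, and P4HB, the β subunit of prolyl 4-hydroxylase, fell by 0.91. The collagen chaperone SERPINH1 fell by 0.39, from 12.08 to 11.69. P3H1 and LOXL2 were not called. Of 8 receptors, 3 fell and 1 rose, where 30.2% of all genes fell and 32.3% rose, so the share that fell was near the background. MCAM, a laminin α4 receptor, fell by 1.07 (limma adjusted p = 1.51e-10) and ITGB1, the common β1 integrin, by 0.57. The rise was in ITGA1, by 0.25 with overlapping arrays, and its probe sets disagreed in direction. Of 7 proteases and inhibitors, 5 fell, led by TIMP3, a matrix-bound inhibitor of metalloproteases, which fell by 1.32 (limma adjusted p = 9.2e-16). MMP2, among the 5, went from 3.42 to 2.59, so it was near the bottom of the scale in both groups. MMP9 and MMP10, which were not called, were also below 4 in both.

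Genes that mark other cells moved in the same arrays. KDR, the one endothelial marker measured of 7, went from 10.18 in C32 GFP to 7.83 in C32 shFHL2. Among 8 measured fibroblast and pericyte markers, 6 were at 4 or more in each C32 group, DCN and LUM were below 4, COL1A2 went from 11.91 to 12.46 and ACTA2 from 8.65 to 7.40, and the summed signal ran from 12.27 to 12.44 with GFP and from 12.76 to 12.80 with shFHL2. The melanocyte lineage sum ran from 16.42 to 16.49 and from 15.36 to 15.45. The array controls differed too: the poly-A spike-ins were at 9.37 in C32 GFP and 5.96 in C32 shFHL2, the 18S probe sets at 13.28 and 13.94, and the 3′ minus 5′ difference of actin, a measure of RNA integrity, at 1.08 and 0.87. The part of these in the result was not tested.

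By the representative probe sets, the FHL2 shRNA arrays of A375M2 had less of both collagen IV chains and of LAMC1, with a smaller difference for LAMA4. COL4A1 was 1.82-fold lower than in GFP, COL4A2 2.34-fold, LAMC1 2.33-fold and LAMA4 1.42-fold. The other basement membrane genes moved both ways: LAMA1, LOXL2 and TIMP2 fell, and NTN4 and TIMP1 rose. The log2 differences were -0.87 ± 0.058 (SE) for COL4A1, -1.23 ± 0.043 for COL4A2, -1.22 ± 0.028 for LAMC1 and -0.51 ± 0.052 for LAMA4, with no overlap of the arrays of either group. Of the 11 probe sets 9 were lower. The 2 higher ones, 210989_at and 210990_s_at, were both of LAMA4, at 0.37 and 0.10. Of these, 210989_at was below 4 in both groups. The dim probe set of COL4A2 gave -2.73 where the bright one gave -1.23. LAMC1 gave -0.45 with 200770_s_at, so its larger fall than that of LAMA4 rests on 200771_at. The median of the 4 genes was -1.04, against -0.034 for all genes.

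Of the 47 other genes, 23 fell (48.9%) and 15 rose (31.9%) in A375M2 shFHL2, where 44.2% of all genes fell and 41.2% rose, so the share that fell was near the background. At a change of at least 2-fold, 13 fell and 8 rose, where 3426 of all 10918 genes were called in either direction. The 8 include TINAGL1, FRAS1 and MMP10, which entered the fit through the A375M2 shRNA arms, where they were high. They also include SERPINH1, which was at the bottom of the scale in GFP. Their median difference was -0.23. LAMA1 went from 7.12 to 2.85 on every shFHL2 array, the lowest value of that probe set, with an adjusted p of 2.04e-17. LAMB1 fell by 0.44 (14.75 to 14.31, adjusted p = 1.3e-08), LAMA2 fell by 1.70, and LAMB3, the β chain of epithelial laminin-332, rose by 1.33. Among the linkers, 6 of 11 fell and 3 rose: NID1 fell by 1.42 (13.52 to 12.11, adjusted p = 6.84e-11) and COL18A1 by 2.04, while NTN4, a laminin-related netrin, rose by 1.41.

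Of 15 synthesis genes 10 fell and 3 rose in A375M2 shFHL2. LOXL2, a lysyl oxidase that crosslinks collagen IV, fell by 2.53 (9.32 to 6.79, adjusted p = 2.71e-12), and PLOD3, a lysyl hydroxylase and glycosyltransferase, fell by 1.73. SERPINH1 averaged 1.77 in A375M2 GFP and PMEL and 10.47 ± 0.030 (SD) with shFHL2. The value of 1.77 is near the bottom of the scale, so that the size of its rise is set by the bottom of the scale, and it follows the array sets as well as the groups. Of 8 receptors 4 were called higher and 1 lower, where 41.2% of all genes rose and 44.2% fell, with MCAM up by 0.84 and the laminin receptor subunit ITGA6 by 0.83 (adjusted p = 1.91e-10 and 1.21e-07). TIMP2 fell by 2.66 and TIMP1 rose by 1.05 (adjusted p = 1.48e-17 and 2.33e-14). The linker TINAGL1 was at 3.27 in GFP, near the bottom of the scale, and at 7.10 with shFHL2; it entered the fit through the A375M2 shRNA arms, so its difference is no support for a rise.

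PMEL in A375M2 went with small differences. COL4A1 was 1.18-fold lower, LAMA4 1.29-fold, LAMC1 1.10-fold and COL4A2 1.06-fold, and among the other genes P3H2 and ITGA1 fell the most. The log2 differences were -0.24 ± 0.058 (SE) for COL4A1, -0.36 ± 0.052 for LAMA4, -0.14 ± 0.028 for LAMC1 and -0.086 ± 0.043 for COL4A2. Without replicate 3 of both groups they were -0.25, -0.29, -0.16 and -0.13. The second probe set of COL4A2 was 0.15 higher, so the direction of that gene was not settled. LAMC1 gave -0.39 with its second probe set, 200770_s_at. The arrays of GFP and PMEL did not overlap for any of the 4 representative probe sets, but the ranges of COL4A2 nearly met, at 13.28 and 13.29.

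Of the 47 other genes, 21 fell (44.7%) and 6 rose (12.8%) with PMEL, where 17.8% of all genes fell and 22.1% rose. The median difference of the 47 was -0.15, that of the 4 chains was -0.19 and that of all genes was 0.016. At a change of at least 2-fold, 2 of the 47 fell and 0 rose, where 234 of all 10918 genes were called in either direction. The 2 were P3H2, which fell by 2.70 (8.54 to 5.83, adjusted p = 1.86e-13), and ITGA1, the α1 subunit of a collagen IV integrin, which fell by 1.36 (adjusted p = 5.08e-09). Of 15 synthesis genes, 8 fell and 0 rose (limma). LAMA2 fell by 0.85 and LAMA1 by 0.52, and 4 of the 5 other laminin chains fell. NID1 rose by 0.36 (adjusted p = 0.00452), against the direction of the 4 chains. KDR was 5.56 with PMEL and 6.83 with GFP, and LUM, a fibroblast marker, was 9.08 and 11.11. The summed fibroblast and pericyte signal ran from 11.39 to 11.51 with PMEL and from 12.33 to 12.51 with GFP, with DCN and COL1A2 below 4 in both. The 18S probe sets were at 11.08 with PMEL and 12.52 with GFP, the actin 3′ minus 5′ difference at 0.74 and 0.61, and the poly-A spike-ins at 6.90 and 7.15. Their part in the result was not tested.

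NFYA shRNA went with the lowest collagen IV and LAMC1 signals of the A375M2 groups. COL4A2 was 3.61-fold lower than in GFP, LAMC1 3.23-fold, COL4A1 2.82-fold and LAMA4 1.47-fold. NID1 and LAMB1 fell too, and LAMB3 rose. The log2 differences were -1.85 ± 0.043 (SE) for COL4A2, -1.69 ± 0.028 for LAMC1, -1.49 ± 0.058 for COL4A1 and -0.56 ± 0.052 for LAMA4. Of the 11 probe sets 8 were lower. The 3 higher ones were all of LAMA4: 210089_s_at by 0.36, and the dim 210989_at and 216081_at by 1.47 and 1.62. The mean of the LAMA4 probe sets was 0.57 higher with shNFYA, so the direction of LAMA4 depends on the probe set there. The probe sets of the other 3 genes gave one direction. LAMC1 gave -0.53 with 200770_s_at, so the size of its fall rests on 200771_at.

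Of the 47 other genes, 28 fell (59.6%) and 15 rose (31.9%) with shNFYA, where 43.2% of all genes fell and 43.6% rose. Their median difference was -0.48, that of the 4 chains was -1.59 and that of all genes was 0.0030. NID1 went from 13.52 to 10.72 (fell by 2.80, adjusted p = 2.69e-15) and LAMB1 from 14.75 to 13.60 (adjusted p = 1.14e-14). FREM2 fell by 4.74 and LOXL2 fell by 3.77. DDR2, a collagen receptor kinase, fell by 1.64 (adjusted p = 2.5e-16), and CRTAP, a partner of the prolyl 3-hydroxylases, by 1.77. LAMB3 went from 6.45 to 9.47 (adjusted p = 3.25e-14). MMP10, a stromelysin, was at 2.47 in GFP, near the bottom of the scale, and at 9.69 with shNFYA; it entered the fit through the A375M2 shRNA arms, so its difference is given as values alone. At a change of at least 2-fold, 16 of the 47 fell and 9 rose, where 3909 of all 10918 genes were called in either direction. The 9 include TINAGL1, FRAS1 and MMP10, which entered the fit through the A375M2 shRNA arms, where they were high, and MMP9, which entered through shNFYA alone. They also include SERPINH1, which was at the bottom of the scale in GFP. The value of ITGA1, -2.12, turned to 1.28 with another of its probe sets. In both shRNA arms of A375M2, markers of other cells differed from GFP. KDR was 6.83 in GFP, 7.58 in shFHL2 and 5.86 in shNFYA. Of 8 measured fibroblast and pericyte markers, 6 were at 4 or more in GFP and 5 in each shRNA arm, with DCN and COL1A2 below 4 in all 3, and the summed signal ran from 12.33 to 12.51, from 10.67 to 10.79 and from 11.02 to 11.13. The Schwann cell marker PMP2, 1 of 4 measured, was 7.90, 2.46 and 2.76, and the epithelial marker KRT18, 1 of 2 measured of 6, was 11.44, 12.76 and 12.12. The array controls differed as well: in GFP, shFHL2 and shNFYA the 18S probe sets were at 12.52, 14.18 and 14.19, the actin 3′ minus 5′ difference at 0.61, 1.07 and 1.19, and the poly-A spike-ins at 7.15, 6.57 and 6.84. The part of these markers and controls in the results of either arm was not tested. This comparison, the one of shFHL2 and the one of PMEL share the A375M2 GFP arrays, so their values are set side by side and not counted against each other.

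**Figure D2:**
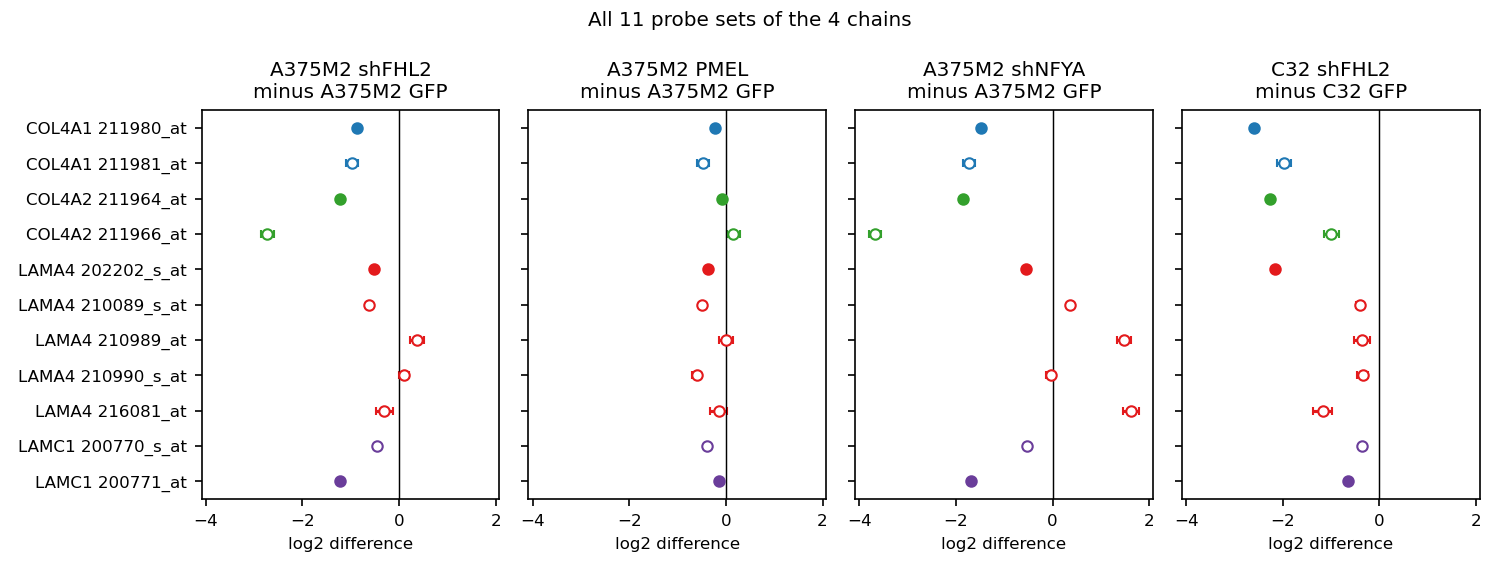
Log2 difference from the GFP arrays of the same line, with its SE, for each of the 11 probe sets in 4 comparisons; filled points are the representative probe sets. All 11 lie below 0 in C32 shFHL2, from -2.60 to -0.35, and in A375M2 shNFYA the 3 points well above 0 are of LAMA4.

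The shRNA arms of A375M2, which belong to one array set, can be compared directly. COL4A1 and COL4A2 were each higher in shFHL2 than in shNFYA by 0.63, with SEs of 0.058 and 0.043, which is 1.54-fold and 1.55-fold. LAMC1 was higher by 0.47 ± 0.028, and LAMA4 by 0.050 ± 0.052, a value within its error. Both probe sets of COL4A1, COL4A2 and LAMC1 were higher in shFHL2, whereas 3 of the 5 of LAMA4 were lower, down to -1.93. The second probe set of LAMC1, 200770_s_at, was higher by 0.080 ± 0.038 (SE). Of the 47 other genes, 18 were higher in shFHL2 and 18 lower, where 31.8% of all genes were higher and 38.4% lower. NID1 was higher by 1.39 and LAMB1 by 0.71 (adjusted p = 2.85e-10 and 5.8e-11), FREM2 was higher by 3.97, and LAMB3 was lower, with a difference of -1.69. MMP10 was at 5.86 and 9.69. At a change of at least 2-fold, 8 were higher and 3 lower, where 1135 of all 10918 genes were called in either direction. The 3 include MMP9, which entered the fit through shNFYA alone. COL18A1 had a difference of -0.43 (adjusted p = 0.000112).

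**Figure D3:**
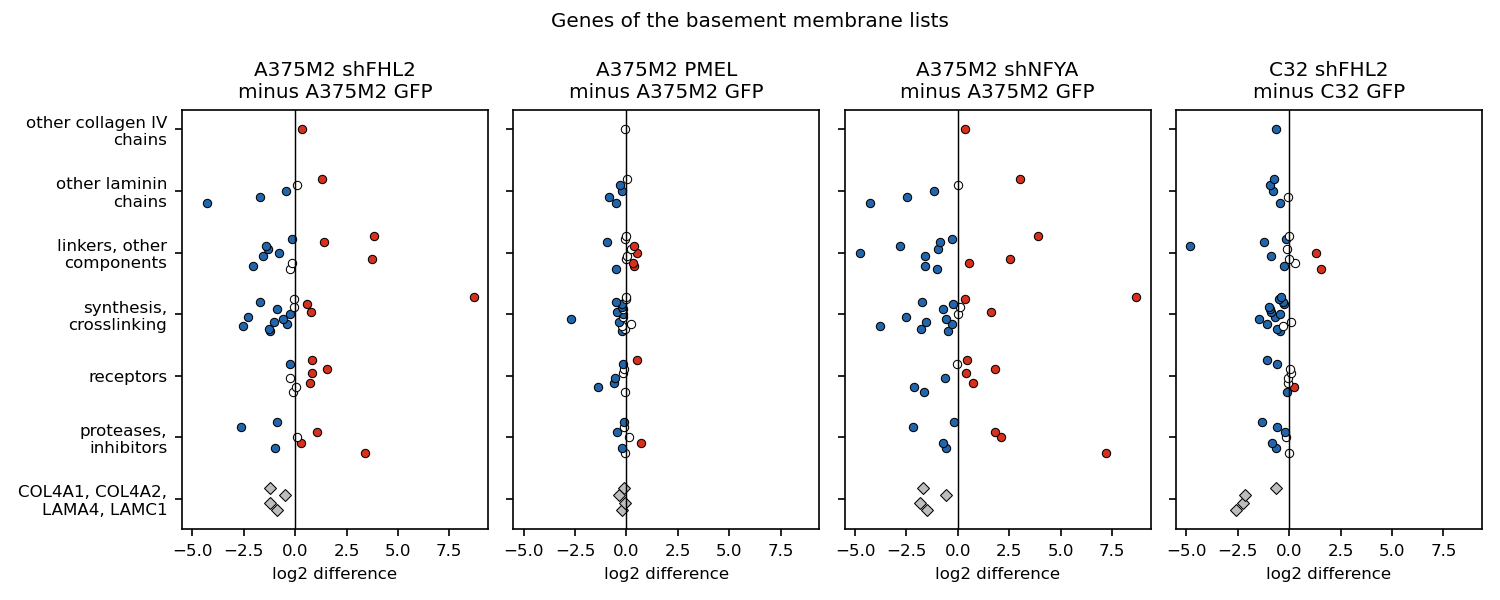
Log2 differences from the GFP arrays of the same line for the 47 tested genes of 6 basement membrane lists, 1 point a gene; red genes were called higher, blue lower and open ones not called at an adjusted p under 0.05, and grey diamonds are the 4 chains, which were not tested. In C32 shFHL2 31 points are blue and 3 red, while in A375M2 shFHL2 23 are blue and 15 red.

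The lines differed more in collagen IV than the arms within a line did. With GFP, COL4A1 was 27.7-fold lower in C32 than in A375M2 and COL4A2 15.9-fold, LAMC1 was 4.47-fold lower, and LAMA4 1.47-fold. The log2 differences were -4.79 ± 0.065 (SE), -3.99 ± 0.048, -2.16 ± 0.031 and -0.56 ± 0.058. For COL4A1, COL4A2 and LAMC1 both probe sets were lower. For LAMA4, 3 of 5 were higher, up to 1.51, and the mean of all 5 was 0.32 higher. The 1.51 was from 210989_at, at 3.39 in A375M2 GFP, near the bottom of the scale. The difference of 216081_at, 0.055 ± 0.19 (SE), was within its error, with both groups below 4. Only 210089_s_at was higher with both groups well above 4, by 0.97. The order of the lines for LAMA4 is thus open to the choice of probe set. Here too the line and the set of arrays cannot be told apart. Markers of other cells and controls also differed between the lines: in A375M2 and C32 with GFP, KRT18 was at 11.44 and 2.17, LUM at 11.11 and 2.56, COL1A2 at 3.92 and 11.91, KDR at 6.83 and 10.18, and the poly-A spike-ins at 7.15 and 9.37. The 18S probe sets were at 12.52 and 13.28 and the actin 3′ minus 5′ difference at 0.61 and 1.08. Their part in the result was not tested.

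Of the 47 other genes, 20 were lower and 16 higher in C32, where 47.4% of all genes were lower and 38.5% higher. At a change of at least 2-fold, 13 were lower and 10 higher, where 4699 of all 10918 genes were called in either direction. From A375M2 to C32, NID1 fell by 5.16 (13.52 to 8.36, adjusted p = 2.16e-18) and LOXL2 fell by 4.81. MMP2, a gelatinase that cuts collagen IV, was at 9.17 in A375M2 GFP and at 3.42 in C32 GFP, near the bottom of the scale. It entered the fit through the A375M2 groups, so its difference of -5.74 is no support for a fall. LAMB1 differed by -0.35. COL4A5 was higher in C32 by 2.03 and LAMA1 by 2.83 (adjusted p = 6.68e-15 and 2.1e-14). The synthesis enzymes P4HA1 and PLOD2 were higher by 2.08 and 1.95. MCAM was higher by 1.39, and MMP14, a membrane-bound matrix protease, by 2.41.

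The difference between the 2 shFHL2 effects was taken in the same fit. It was -1.73 ± 0.088 (SE) for COL4A1, -1.65 ± 0.077 for LAMA4 and -1.04 ± 0.064 for COL4A2, that is, a larger fall in C32. For LAMC1 it was 0.58 ± 0.042, a smaller fall in C32. In A375M2 the shFHL2 and GFP arrays are of different sets, so a difference between the lines cannot be told apart from the array sets here. The second probe set of COL4A2 gave 1.73, with its C32 shFHL2 arrays at the bottom of the scale, so the order of the lines for COL4A2 rests on 211964_at. Both probe sets of COL4A1 gave a larger fall in C32. The second probe set of LAMC1, 200770_s_at, gave 0.082 ± 0.056, so the smaller fall of LAMC1 in C32 rests on 200771_at. For LAMA4, 4 of 5 probe sets gave a larger fall in C32; they ran from -1.65 to 0.22, and the smallest value over the alternatives tried was -0.70. Of the 47 other genes, 25 were called below 0 and 15 above 0 in this difference, where 38.1% and 42.1% of all genes were. At a difference of at least 2-fold, 13 were below and 11 above, where 3704 of all 10918 genes were called in either direction. NID1 fell by 1.42 in A375M2 and by 4.83 in C32, a difference of -3.42 (adjusted p = 1.62e-13). LAMA1 fell by 4.27 in A375M2 and by 0.45 in C32, and TIMP2 fell by 2.66 and 0.58.

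**Figure D4:**
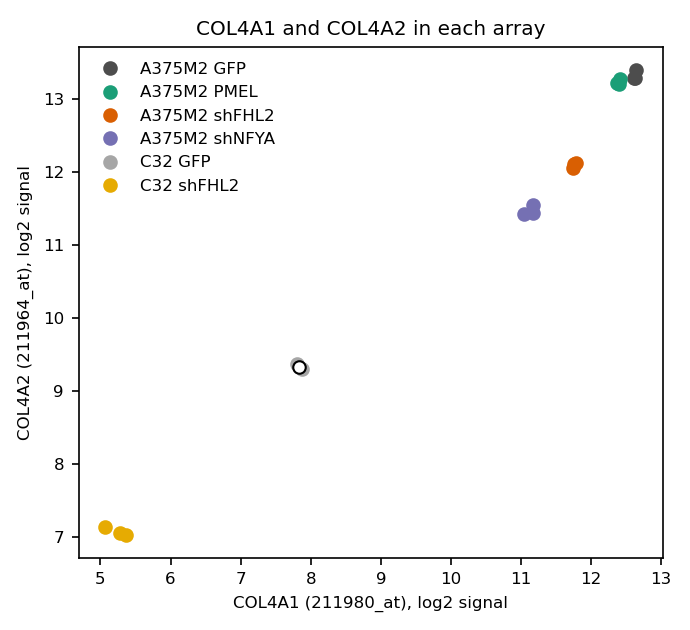
COL4A1 against COL4A2 log2 signal on each of the 18 arrays, coloured by group; the open point is C32 GFP replicate 3. The groups lie along one line from C32 shFHL2, at 5.24 and 7.07, to A375M2 GFP, at 12.62 and 13.32.

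COL4A1 and COL4A2 had similar patterns over the 6 group means. When each gene was centred on its own mean, the root mean square difference between them was 0.56, and COL4A2 was number 8 of 10917 genes in likeness to COL4A1, where the median gene was at 2.69. COL4A1 was number 7 for COL4A2. This is a description over 6 means, which share arrays and the gap between lines. The 5 genes nearest to COL4A1 were BAG2 at 0.32, FAM107B, SLC16A7, TLCD1 and SEL1L3. Those nearest to COL4A2 were KANSL1-AS1 at 0.32, CCDC18-AS1, HOXB8, EPHA3 and CTSH. LAMA4 and LAMC1 were 0.66 apart. LAMA4 had SIL1 nearest at 0.17, then VPS13D, RPS6KA2, TRIM16 and PRSS12, and LAMC1 had PPP1R35 at 0.10, then MINDY1, GPS1, LRRC73 and ZNF337. LAMC1 lay 1.85 from COL4A1 and 1.32 from COL4A2, although the order of its groups was the same, since its range was narrower: from 11.23 to 14.04, against 5.24 to 12.62 for COL4A1.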

How the data were processed

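Total RNA of 18 samples was measured on Affymetrix 3′ arrays. The deposited values are log2 signals made by the authors with GCRMA, per the submitters' processing notes; no version is named there. GCRMA sets dim probe sets to a low floor, where differences have no size. All columns were matched to samples by title (0 unmatched).

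Of 23416 probe sets, 58 were controls, 995 had several genes, 2099 none and 20264 a single gene; 20254 symbols were updated by Entrez gene ID. Probe sets at log2 4 or more in at least 3 arrays were kept (833 with a single gene were not), and the brightest represented its gene. limma 3.58.1 (R 4.3.3; lmFit, eBayes with trend) was run on the group means of 17 arrays (11 residual degrees of freedom, of which 1 may not be independent), with Benjamini-Hochberg adjustment over 10918 genes in each of 7 comparisons and calls at an adjusted p under 0.05. The number of arrays limits precision: the median SE was 0.071 within A375M2, 0.080 with C32 and 0.11 for the difference of effects. The series describes separate experiments for A375M2; for C32 the p-values measure only the spread between arrays, which may be technical. The members and the gene lists were chosen with earlier results of these data known.

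Named genes are all probe sets of the 4 chains, the targets, up to 3 called rises and falls a list and comparison (5 each way in the difference of effects), and the 5 genes most like each chain; P4HB, SERPINH1, P3H1 and LOXL2 in C32 were chosen after their values were seen. Same-numbered arrays did not deviate together (correlations of 0.044, 0.080 and -0.0027 for A375M2 shFHL2 and GFP), so they were not paired. The pipeline was tested on simulated data. Motifs were counted in a RefSeq promoter table (GRCh38.p14). Python 3.11.15 and matplotlib 3.10.9 made the plots.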

Additional observations from a re-analysis of the deposited data

Results flagged for a closer look

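The FHL2 shRNA effect differed between the lines by the interaction term for 10 listed genes named here (limma, difference in C32 minus that in A375M2). It was less negative or turned in C32 for LAMA1 (3.82), LOXL2 (2.22), TIMP2 (2.08), FREM2 (2.07) and COL15A1 (1.80). It was lower in C32 for SERPINH1 (-9.09), TINAGL1 (-3.83), FRAS1 (-3.73), NID1 (-3.42) and MMP10 (-3.41). Adjusted p (limma) ranged from 2.73e-20 for SERPINH1 to 8.89e-06 for COL15A1. The A375M2 part of this term compares arrays of different sets, so line and array set cannot be told apart in it. TINAGL1, FRAS1 and MMP10 entered the fit through the A375M2 shRNA arms, where they were high, so they had to differ and their values support nothing. They were at 3.27, 2.21 and 2.47 in A375M2 GFP, at 7.10, 5.93 and 5.86 in A375M2 shFHL2 and at 3.24, 2.21 and 2.49 in C32 GFP, with differences of -0.0036, 0 and -0.019 in C32. SERPINH1 in A375M2 GFP (1.77) and LAMA1 in A375M2 shFHL2 (2.85) were also near the bottom of the scale, which sets the sizes of those differences. NID1 ended there in C32 shFHL2 (3.53). COL15A1 entered the fit through C32 shFHL2, at 5.47 with means below 4 in the other groups, so its value supports nothing either.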

How the results depend on the processing

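Alternatives were other array choices, filters, floors, scalings, probe sets, variance models, thresholds and a replicate block. Asking for at least a 2-fold change lowered the counts of calls among all genes to 3426 (A375M2 shFHL2), 234 (PMEL), 3909 (shNFYA), 1135 (shFHL2 against shNFYA), 921 (C32 shFHL2), 4699 (lines) and 3704 (difference of effects). Genes of the lists were then 8 higher and 13 lower, 0 and 2, 9 and 16, 8 and 3, 6 lower in C32, 10 and 13, and 13 lower in the difference of effects. No other alternative moved these counts by over 1.5 times. The replicate block gave 30 lower and 2 higher list genes in C32 shFHL2, and 23 and 15 in A375M2 shFHL2. With 1 array left out, calls ranged from 9072 to 9362, 3695 to 4514, 9272 to 9517, 7266 to 7744, 6204 to 6872, 9048 to 9380 and 8512 to 8780 in the order above.

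The mean of all probe sets reversed COL4A2 with PMEL (0.032) and in the difference of effects (0.35), and LAMA4 in shNFYA (0.57), shFHL2 against shNFYA (-0.77) and between lines (0.32). By probe set, ITGA1 turned to 1.28 and 0.017 in shNFYA and to -0.22 and -0.0026 in C32, and P4HA2 to -0.62 in shNFYA and to 1.12 and 0.15 between shRNA arms; NFYA with PMEL was -0.075. Between lines MIA3 turned to 0.16 with all arrays, to 0.15 without the arrays numbered 3 of A375M2 GFP and PMEL, and to 0.16 without any 1 A375M2 shRNA array, since another of its probe sets then represents it; over all arrays left out in turn it ranged from -1.53 to 0.16. Median centring, which moved the median gene by 0.13, 0.12 and 0.20 for shFHL2, shNFYA and the lines and by -0.11 for the difference of effects, turned ITGB1 (0.0029), FHL2 (0.068) and NFYA (0.18) between lines and FHL2 in shNFYA (0.014). Quantile scaling moved the lines by 0.18 and turned NFYA there (0.14) and PMEL between shRNA arms (-0.028, and -0.037 without 1 shFHL2 array). NFYA between lines was 0.050 without the arrays numbered 3 and 0.013 to 0.050 with 1 array left out. Where no cause is given, the cause was not tested. Of 812 values of the 4 chains under the alternatives, 756 moved by less than the spread between arrays and 5 reversed.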
